A study of Mus musculus with 6 samples.

Results

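The genes described here are 10 mouse genes of the piRNA pathway and of transposon defence, found by matching each symbol to its Ensembl identifier among the 48709 genes counted in fetal ovaries. They are the PIWI proteins Piwil2 and Piwil4, the Tudor proteins Tdrd1, Tdrd5, Tdrd9 and Tdrd12, and the cofactors Mael, Mov10l1, Asz1 and Tex19.1. All 10 were counted in every library, with at least 140 reads each, and all 10 passed the filter on low counts. The ovaries came from wild-type CD1 embryos at 13.5 dpc (days post coitum), whose mothers received acetaminophen (APAP, 30 mg/kg/day) and ibuprofen (IBU, 15 mg/kg/day) in alternation, by 4 gavages at intervals of 3 h, between 10.5 and 13.5 dpc. Control dams received the ethanol vehicle. Each group had 3 libraries of polyadenylated RNA, and each library was made from its own pool of whole gonads, so germ cells and somatic cells were measured together. Titles of the exposed samples name ibuprofen only, while their exposure label names both drugs.

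PIWI proteins bind small RNAs, called piRNAs, that guide them to transposon transcripts. Most of the pathway works in the nuage, a germ cell compartment beside mitochondria, where Tudor proteins hold PIWI proteins together and helicases and mitochondrial proteins process piRNA precursors. In mice the pathway is best known from the fetal and adult male germ line, and oocytes also express part of it.

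Total counts ran from 37811968 to 48954631 per library. Germ cell markers were present in all libraries, with 964 to 1276 CPM (counts relative to the TMM-scaled library size) summed over 12 genes, and 10 markers of gonadal somatic cells summed to 1161 to 1567 CPM. With all 6 libraries, 10 of the 12 germ cell markers had negative log2 fold changes of exposed over control ovaries (median -0.35). In replicates 1 and 2, 9 were negative (median -0.77). There 6 were lower and 2 higher at an adjusted p of 0.05 in edgeR, against 12.9% and 14.2% of all genes. The replicate 3 libraries stood apart in both groups, because 14 fetal liver genes summed to 2038 CPM in the control and 3313 CPM in the exposed library, against 203 to 575 CPM in the other 4. Spermatid markers also differed between the groups, since 12 genes summed to 43.1 to 152 CPM in controls and to 2.07 to 6.23 CPM after exposure. None of the 12 was at 0 in any library. Erythroid genes, 12 in the list, summed to 7065, 17248 and 10995 CPM in controls and to 3194, 5447 and 10249 CPM after exposure. In replicates 1 and 2 all 12 had negative log2 fold changes (median -1.09), and 6 of them passed an adjusted p of 0.05 in edgeR. Results are therefore given for all 6 libraries and for replicates 1 and 2 alone, and the part of liver, blood or spermatid RNA in them was not tested. The p-values measure the spread between these pools.

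Promoters of 3 members are shown. Tex19.1 and Asz1 were the members that passed an adjusted p of 0.05 in replicates 1 and 2 (edgeR), in opposite directions, where 27.2% of all genes passed. Neither passed with all 6 libraries or after a correction for length and GC content, with which both were lower. Mael had the highest level per length. The RefSeq table for GRCm38.p6 held 9 of the 10 genes, with 13 start sites. Each line gives the 250 bases before the start, 5′ to 3′ on the strand of the gene, and capitals mark a match to TCCCGC (the core bound by E2F6, a repressor of germ cell genes in somatic cells) or to CACGTG (an E-box), read on both strands. The Tex19.1 window is chr11:121145893-121146142 on the plus strand. The Asz1 window is chr6:18109062-18109311 on the minus strand, and the Mael window is chr1:166238745-166238994 on the minus strand.
Tex19.1: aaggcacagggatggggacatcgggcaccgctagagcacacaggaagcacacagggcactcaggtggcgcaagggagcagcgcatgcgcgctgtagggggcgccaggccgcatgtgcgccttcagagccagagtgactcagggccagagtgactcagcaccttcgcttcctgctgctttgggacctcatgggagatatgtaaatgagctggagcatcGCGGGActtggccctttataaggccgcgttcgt
Asz1: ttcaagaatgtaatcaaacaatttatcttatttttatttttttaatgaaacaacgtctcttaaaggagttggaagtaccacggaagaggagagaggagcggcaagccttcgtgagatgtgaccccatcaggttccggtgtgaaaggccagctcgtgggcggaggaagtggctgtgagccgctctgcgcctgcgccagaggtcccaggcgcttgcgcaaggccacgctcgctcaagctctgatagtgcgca
Mael: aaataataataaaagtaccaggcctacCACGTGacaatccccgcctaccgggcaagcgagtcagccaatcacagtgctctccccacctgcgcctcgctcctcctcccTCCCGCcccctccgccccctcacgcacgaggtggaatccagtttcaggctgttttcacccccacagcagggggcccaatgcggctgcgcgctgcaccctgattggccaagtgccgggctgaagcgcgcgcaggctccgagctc
In Tex19.1 the match began 33 bases before the start. Mael had both motifs, at 143 and 223 bases before the start, and Asz1 had neither. Of the 13 start sites, 3 held TCCCGC (Tdrd5, Mael and Tex19.1), which 16.9% of 32807 promoters of the same length also held. CACGTG was found at 5 start sites (Tdrd1 with overlapping windows, Tdrd9, Mael and Mov10l1), against 6.02% of all promoters. CNCCTCAG, bound by STRA8, the inducer of meiosis, was found at none of the 13 and in 6.41% of all promoters, and AACNGTT, a core of MYB factors, at 1 (an internal start of Piwil4) and in 3.8%. The motifs do not overlap each other in these windows. The windows shown held 15 CpG dinucleotides each in Tex19.1 and Asz1 and 18 in Mael, and the median over all promoters was 6.

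Levels per length differed widely between members. As RPKM (CPM divided by the exonic length in kilobases), Mael and Tex19.1 were the most abundant members, with 63.4 ± 6.71 and 62.3 ± 6.14 RPKM (SD, n = 3) in control ovaries. Mov10l1 followed with 33.1 ± 3.69 RPKM (SD, n = 3) and Piwil2 with 23.5 ± 2.79 RPKM (SD, n = 3). Asz1 (7.48 ± 1.1 RPKM, SD, n = 3), Tdrd1 (5.49 ± 0.379 RPKM) and Tdrd5 (4.32 ± 0.75 RPKM) were intermediate. Tdrd12 (2.56 ± 0.121 RPKM, SD, n = 3) and Tdrd9 (2.24 ± 0.287 RPKM) were lower, and Piwil4 was the least abundant at 0.719 ± 0.048 RPKM. Mael lay above 96.5% of all tested genes and Piwil4 above 25.5%. Control libraries overlapped between Mael and Tex19.1 and between Tdrd1 and Tdrd5, and no other neighbours in this order overlapped. Over all 6 libraries, Tex19.1 also overlapped with Mov10l1, and Tdrd12 with Tdrd9.

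**Figure D1:**
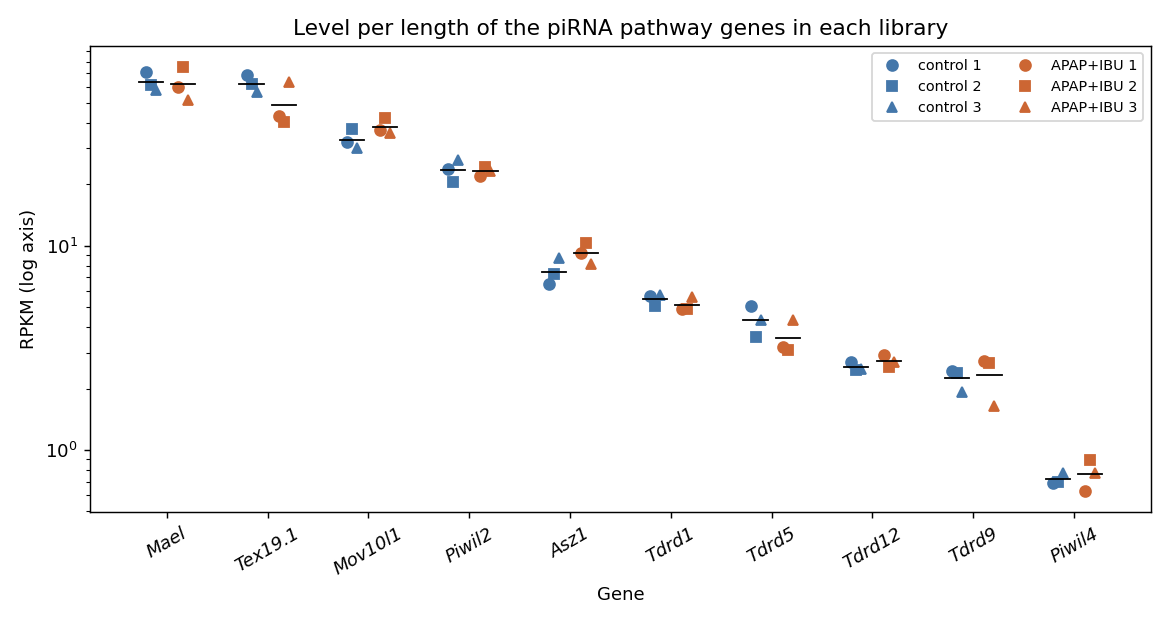
Level per length (RPKM, log axis) of the 10 genes in each library, ordered by the control mean. Points are libraries, with one marker shape per replicate number, and black lines are group means. The levels run from Mael at 63.4 RPKM to Piwil4 at 0.719 RPKM in controls, and control and exposed points overlap for every gene.

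The comparison between exposed and control ovaries asks whether the drug combination altered the RNA of these genes. With all 6 libraries, 0 of the 10 members passed an adjusted p of 0.05 in the quasi-likelihood test of edgeR, where 0% of 20167 tested genes passed. At an unadjusted p under 0.05 the count was again 0 of 10, against 6.22% of all genes, and DESeq2 called 0 of 10, against 0.849% of all genes (0.773% lower). Log2 fold changes were positive for 5 members and negative for 5, with a median of 0.025 against -0.0047 over all genes. For every member the control and exposed libraries overlapped (exact two-sided permutation tests, p from 0.2 to 1, where 0.1 is the smallest value possible). No member passed a test with these 6 libraries, and the 95% intervals below give the size of change that these libraries leave possible. In bulk RNA, fewer cells of a type and less RNA per cell cannot be told apart.

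Among the PIWI genes, Piwil2 (ENSMUSG00000033644, chromosome 14 of GRCm38, 70372477 to 70429383) encodes MILI, the cytoplasmic PIWI protein that slices transposon RNA. It had 125, 109 and 139 CPM in control replicates 1, 2 and 3 and 117, 129 and 124 CPM in the exposed replicates. The exposed libraries all lay within the range of the controls. The fold change of Piwil2 was 0.991, with an interval from 0.808 to 1.21 (edgeR adjusted p = 0.975). Piwil4 (ENSMUSG00000036912, chromosome 9, 14696230 to 14740733) encodes MIWI2, the nuclear PIWI protein that directs DNA methylation of transposons in fetal male germ cells. It had 3.7, 3.75 and 4.17 CPM in controls and 3.39, 4.8 and 4.16 CPM after exposure, from 140 to 220 reads per library. Here the lowest and the highest library were both exposed ones. The fold change of Piwil4 was 1.06 (0.745 to 1.52, adjusted p = 0.898), an interval wider than that of Piwil2. An exon of Gm10706 lies on the opposite strand of Piwil4, and the strand setting of the counting is not given in the sources used here.

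Of the Tudor genes, Tdrd1 (ENSMUSG00000025081, chromosome 19, 56826209 to 56870012), a scaffold of the nuage that binds MILI, had 30.8, 27.5 and 31.3 CPM in controls and 26.6, 26.6 and 30.4 CPM after exposure. Exposed replicates 1 and 2 were the lowest libraries, by a small margin, with a fold change of 0.933 over all 6 libraries (0.751 to 1.16, adjusted p = 0.804). Tdrd12 (ENSMUSG00000030491, chromosome 7, 35469098 to 35537745), a helicase-like partner of MILI, ran from 10.7 to 11.7 CPM in controls and from 11.1 to 12.6 CPM after exposure. Its highest library was 1.175 times its lowest (1.176 times for Tdrd1), the smallest such ratio of the members. Its fold change was 1.07 (0.83 to 1.37, adjusted p = 0.844). Tdrd9 (ENSMUSG00000054003, chromosome 12, 111971559 to 112068854), a helicase that works with MIWI2, had 13.2, 12.9 and 10.4 CPM in controls and 14.7, 14.4 and 8.93 CPM after exposure. In both groups replicate 3 was the lowest library of Tdrd9, and the fold change was 1.04 (0.722 to 1.51, adjusted p = 0.932).

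Tdrd5 (ENSMUSG00000060985, chromosome 1, 156255296 to 156303664), a Tudor protein needed for silencing of transposons in the male germ line, had the lowest mean of the 4 Tudor genes relative to controls. Its levels were 35.1, 24.7 and 30 CPM in controls and 22.2, 21.4 and 29.9 CPM after exposure. Exposed replicates 1 and 2 lay below every control, while exposed replicate 3 lay next to control replicate 3. The fold change was 0.817 over all 6 libraries (0.599 to 1.12, adjusted p = 0.699) and 0.739 in replicates 1 and 2 (0.557 to 0.981, adjusted p = 0.103), so it passed in neither. With each library corrected for GC content and transcript length, it was 0.784 over all 6 libraries (0.576 to 1.07, adjusted p = 0.557). In replicates 1 and 2 the corrected value was 0.666 (0.505 to 0.878, adjusted p = 0.0576). An exon of 4930518J20Rik lies on the opposite strand of Tdrd5.

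Among the cofactors, Mael (ENSMUSG00000040629, chromosome 1, 166201201 to 166238747) encodes maelstrom, a nuage protein of transposon silencing. It had 123, 106 and 100 CPM in controls and 103, 130 and 89.4 CPM after exposure, with a fold change of 0.981 (0.755 to 1.27, adjusted p = 0.957). Highest and lowest libraries of Mael were both exposed ones. Mov10l1 (ENSMUSG00000015365, chromosome 15, 88982909 to 89055152), the RNA helicase that feeds precursors into piRNA processing, had 134, 156 and 126 CPM in controls and 154, 177 and 150 CPM after exposure. Each exposed replicate was above the control of the same number, but control replicate 2 was above exposed replicates 1 and 3. The fold change of Mov10l1 was 1.16 over all 6 libraries (0.935 to 1.43, adjusted p = 0.698) and also 1.16 in replicates 1 and 2 (0.965 to 1.39, adjusted p = 0.199).

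Tex19.1 (ENSMUSG00000039329, chromosome 11, 121146143 to 121148319) encodes a germ cell and placental protein that restrains retrotransposons and is not a core piRNA factor. It had 129, 116 and 106 CPM in controls and 80.9, 75.4 and 118 CPM after exposure. Exposed replicates 1 and 2 were the lowest libraries, and exposed replicate 3 was above control replicates 2 and 3. Over all 6 libraries the fold change was 0.785 (0.582 to 1.06, adjusted p = 0.692). In replicates 1 and 2 Tex19.1 fell to 0.649-fold (0.553 to 0.762, adjusted p = 0.00747), and between the replicate 3 libraries its log2 level was 0.17 higher after exposure. After a correction of each library for GC content and transcript length, the fold change in replicates 1 and 2 was 0.799 (0.688 to 0.928, adjusted p = 0.054). The paralogue Tex19.2 lies in the same annotation, and how reads that match both copies were counted is not given in the sources used here.

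Asz1 (ENSMUSG00000010796, chromosome 6, 18050964 to 18109061) encodes GASZ, which anchors the nuage to mitochondria. Its levels were 18.4, 20.6 and 24.5 CPM in controls and 26, 29.4 and 22.9 CPM after exposure. Exposed replicates 1 and 2 were the highest libraries, and exposed replicate 3 was below control replicate 3. The fold change was 1.23 over all 6 libraries (0.941 to 1.62, adjusted p = 0.692). In replicates 1 and 2 Asz1 rose 1.44-fold (1.17 to 1.78, adjusted p = 0.0253). Asz1 had the lowest GC content of the members, 36.3% in its longest transcript against 44.3 to 52.6% in the other 9. After the correction for length and GC content its direction turned, to 0.912-fold over all 6 libraries (0.738 to 1.13, adjusted p = 0.726) and 0.849-fold in replicates 1 and 2 (0.681 to 1.06, adjusted p = 0.287).

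Replicates 1 and 2 alone thus gave 1 higher and 1 lower member, 2 of 10, where 27.2% of 20633 tested genes passed the same threshold (14.2% higher and 12.9% lower). DESeq2 called the same 2, against 27.8% of all genes, and at an unadjusted p under 0.05 edgeR gave 3 of 10 (also Tdrd5), against 41%. With the correction 0 of 10 passed, against 13.9% of all genes, and 2 of 10 (Tex19.1 and Tdrd5, both lower) had an unadjusted p under 0.05, against 30.8% (17.6% lower).

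**Figure D2:**
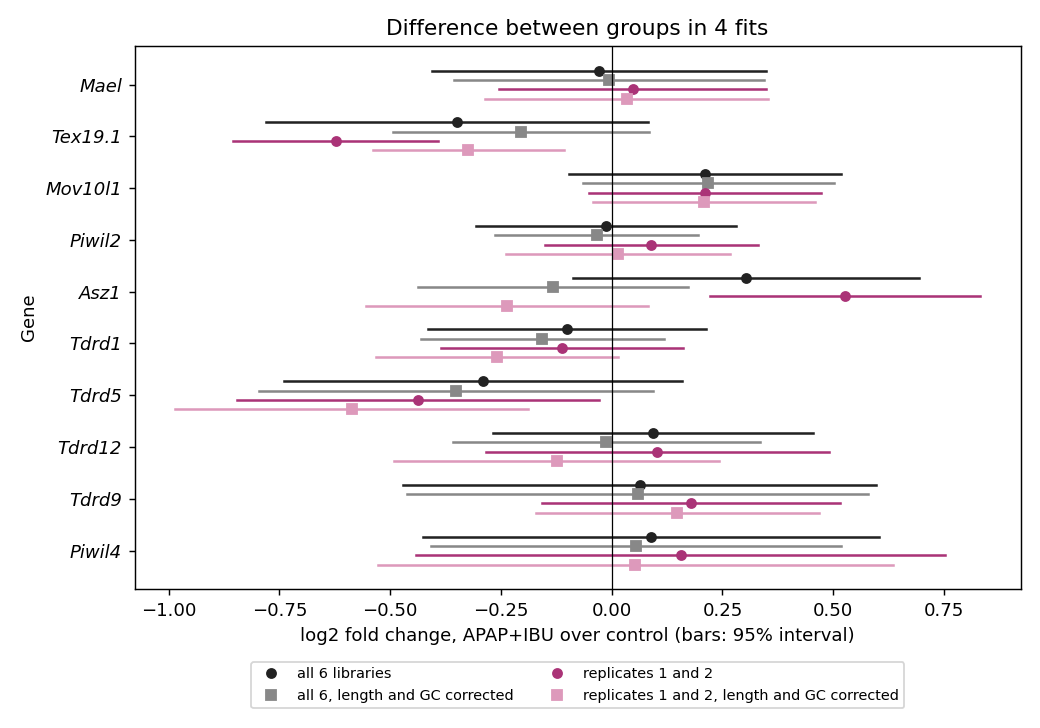
Log2 fold change of exposed over control ovaries (x axis) for each gene (y axis) in 4 fits, with bars for the 95% interval. Intervals from all 6 libraries cross 0 for every gene; in replicates 1 and 2 without correction, Tex19.1, Tdrd5 and Asz1 do not cross it (with correction, Tex19.1 and Tdrd5), and the points of Asz1 lie on opposite sides of 0 with and without the correction for length and GC content.

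Averaged over the 10 members, log2 levels centred on each gene's mean ran from -0.048 to 0.058 over the libraries, a nearly flat pattern. The genes nearest to it among 12455 candidates of at least 5 CPM were Ift172, Gpr107, Ttl, Arih2 and Rims3, with root mean square differences from 0.02 to 0.03 on the log2 scale over 6 libraries. Single members departed from the flat pattern in opposite ways. Tex19.1 and Tdrd5 had exposed replicates 1 and 2 as their lowest libraries and control replicate 1 as their highest. This order, noticed after the values had been seen, was found in 5.83% of all tested genes and in 7 of 12 germ cell markers. The 7 were Dnd1, Dppa3, Dppa5a, Nanos3, Pou5f1, Sall4 and Tfap2c. The markers Ddx4, Dazl, Utf1, Kit and Sox2 did not show this order. Without regard to control replicate 1, Tdrd1 also had exposed replicates 1 and 2 lowest, making 3 of 10 members, against 12.3% of all genes. Pou5f1, a pluripotency factor, had 144, 94.8 and 84.5 CPM in controls and 57.5, 64 and 108 CPM after exposure. Asz1 and Tdrd9, by contrast, had exposed replicates 1 and 2 as their highest libraries, as did 15.6% of all genes and, of the germ cell markers, Dazl, an RNA-binding protein that prepares germ cells for meiosis. Dazl had 368, 380 and 553 CPM in controls and 587, 592 and 476 CPM after exposure.

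Because whole ovaries were sequenced, each member was also set against the germ cell markers. Relative to the mean log2 level of the 12 markers, the median of the members' own differences between exposed and control ovaries was 0.29 on the log2 scale, and relative to Ddx4 and Dazl alone it was -0.23. The sign of this median followed the choice of markers, and Ddx4 is itself in the list of other piRNA pathway genes below. With all 6 libraries, 10 of the 12 markers had negative log2 fold changes (median -0.35), while the median of the members was 0.025. Relative to the 12 markers, control and exposed libraries overlapped for all 10 members, with differences from -0.10 for Tex19.1 to 0.58 for Asz1.

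The rest of the pathway was read from 3 lists. Of 26 other piRNA pathway genes, 22 were tested, and with all 6 libraries none passed an adjusted p of 0.05. Their median log2 fold change was -0.15, with 9 genes above 0 and 13 below, where 49.4% of all tested genes were above 0. At an unadjusted p under 0.05 there were 1 higher gene, Tex15, and 1 lower gene, Tdrd6 (3% and 3.21% of all genes), and DESeq2 called Tdrd6 alone. Some listed genes had few reads. Dnmt3l, a cofactor of DNA methylation, had 0 to 6 reads per library, Dnmt3c, a methyltransferase of young transposons, 2 to 16 reads, and Spocd1, a partner of MIWI2, 5 to 16 reads, so these 3 were not tested.

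Tex15, a nuclear partner of MIWI2 and a factor of meiotic recombination, had 47, 132 and 152 CPM in controls and 302, 281 and 121 CPM after exposure. Exposed replicate 3 was below control replicates 2 and 3. The log2 fold change of Tex15 was 1.09 (SE 0.47, edgeR adjusted p = 0.692), and 1.72 in replicates 1 and 2 (adjusted p = 0.0212), where the correction for length and GC content lowered it to 1.06 (adjusted p = 0.0506). Mybl1, the transcription factor A-MYB that later drives the pachytene piRNA programme, had 15.6, 20.9 and 33.9 CPM in controls and 43.6, 45.8 and 26.7 CPM after exposure. Its log2 fold change was 0.72 (SE 0.31, adjusted p = 0.692), and 1.31 in replicates 1 and 2, where it rose (adjusted p = 0.00623), also after the correction for length and GC content (0.64, adjusted p = 0.0167).

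Tdrd6, a Tudor protein of the chromatoid body in spermatids, had 2.54, 1.23 and 1.15 CPM in controls and 0.513, 0.262 and 0.521 CPM after exposure, from 97 reads down to 12. All exposed libraries lay below all controls, an order that 5.92% of tested genes shared. The log2 fold change was -1.92 (SE 0.45, edgeR adjusted p = 0.326), with an adjusted p of 0.0155 in DESeq2. Control replicate 1 was the highest library of Tdrd6 and also of the spermatid marker Prm1, a sperm chromatin protein, with 35.9 CPM of Prm1 against 7.66 and 5.71 CPM in the other controls and 0.197 to 0.789 CPM after exposure. The part of spermatid RNA in the level of Tdrd6 was not tested. Tex19.2 had 18.6, 19 and 11.3 CPM in controls and 12.2, 13.1 and 12.4 CPM after exposure (log2 fold change -0.37, SE 0.22, adjusted p = 0.692).

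Of 20 chromatin silencing and restriction factors, 19 were tested, and none passed an adjusted p of 0.05 or an unadjusted p of 0.05 with all 6 libraries. The smallest p-values belonged to Atrx (log2 fold change 0.60, SE 0.29) and Mphosph8 (0.37, SE 0.19) on the higher side, and to Rnaseh2a (-0.35, SE 0.23) and Trim28 (-0.25, SE 0.16) on the lower side. ATRX remodels heterochromatin, MPHOSPH8 is a subunit of the HUSH silencing complex, and TRIM28 is the corepressor of zinc finger proteins that bind transposons. Trim28 was abundant, with 970, 863 and 708 CPM in controls and 648, 690 and 805 CPM after exposure. Among 13 genes of the other small RNA pathways, 10 had positive log2 fold changes, with a median of 0.16. Over all tested genes 49.4% were positive, with a median of -0.0047. After the correction for length and GC content, 8 of the 13 were positive (median 0.098), against 47.6% of all tested genes. Tnrc6a, a partner of Argonaute proteins in microRNA silencing, was the only one with an unadjusted p under 0.05 (0.55, SE 0.23, edgeR adjusted p = 0.692). Of all tested genes, 3% were higher at that threshold. Next on the higher side was Ago3 (0.53, SE 0.25). Drosha (-0.18, SE 0.11) and Prkra (-0.12, SE 0.14), both of microRNA processing, had the smallest p-values on the lower side.

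In replicates 1 and 2, 27.2% of all genes passed (14.2% higher and 12.9% lower). There 6 of the 22 other piRNA pathway genes were higher and 4 lower. Of the 19 silencing factors 8 were higher and 4 lower, and of the 13 small RNA genes 7 were higher and 1 lower. After the correction for length and GC content, where 5.68% of all genes were higher and 8.23% lower, these counts were 2 higher and 1 lower, 0 higher and 1 lower, and 2 higher and 0 lower. The 6 genes that passed with the correction were Mybl1, Gpat2, Tnrc6a and Ago4, which were higher, and Tdrd6 and Rnaseh2a, which were lower, with edgeR adjusted p-values from 0.0117 (Tnrc6a) to 0.0398 (Ago4). Of these, Gpat2, a mitochondrial acyltransferase of piRNA processing, passed only with the correction (adjusted p = 0.02, and 0.12 without it).

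**Figure D3:**
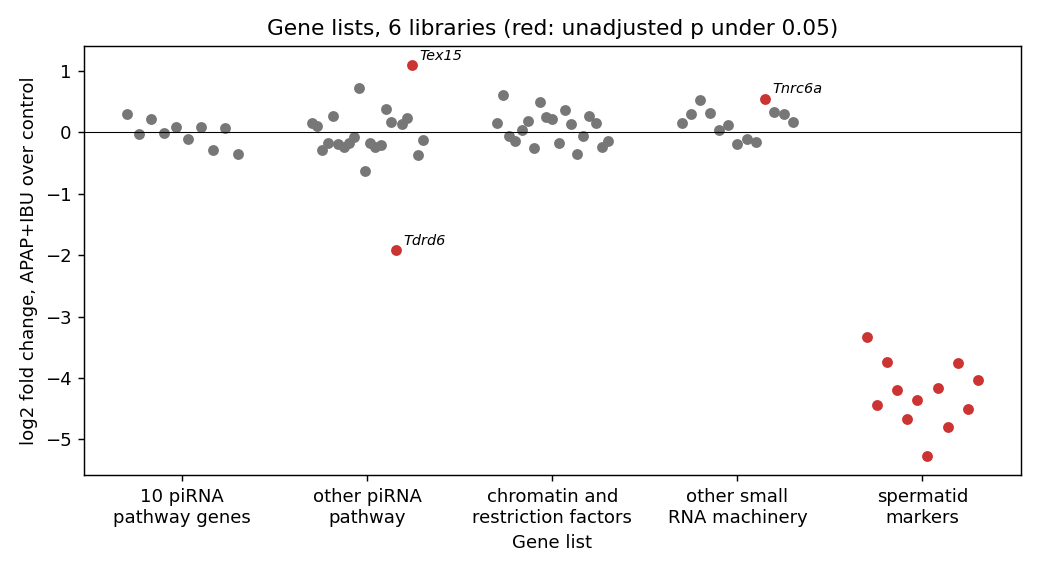
Log2 fold change of exposed over control ovaries (y axis) for each tested gene of 5 lists (x axis) with all 6 libraries, where red marks an unadjusted p under 0.05. The 10 members lie between -0.35 and 0.30, Tdrd6 is at -1.92, and the 12 spermatid markers lie between -5.26 and -3.33.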

How the data were processed

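RNA of whole 13.5 dpc ovaries was sequenced in 3 control and 3 APAP+IBU pools. The authors made stranded polyadenylated libraries, aligned reads to mm10 with TopHat2 2.0.14 and Bowtie2 2.1.0, and deposited raw counts per Ensembl 86 gene from HTSeq 0.6.1. Groups came from the exposure label. Symbols, positions and exonic lengths came from GENCODE M21 (GRCm38, the assembly of mm10).

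Counts were tested with edgeR 4.0.16 (R 4.3.3), using TMM scaling, filterByExpr and glmQLFTest, with p-values adjusted over all 20167 genes tested (20633 for replicates 1 and 2). DESeq2 1.42.0 was an alternative. CPM used TMM scaling, log2 CPM a prior count of 1, and RPKM divided CPM by exonic length. The length and GC correction was a loess fit (span 0.3) in each library. The tests were checked on simulated counts, with the same dispersion for every gene and no differences in liver, blood or spermatid RNA between libraries. That check does not show how the tests perform on pools that differ as these do. Members, lists and alternatives were chosen with earlier results of these data known. Named are all members, the 2 genes of each pathway list with the smallest p in each direction, abundant markers, and the 5 genes nearest in pattern; other genes were chosen after their values were seen. The symbol Tdrd15 was matched to no gene. No pair of pools within a group agreed within sampling noise (chi-square over degrees of freedom 17.2 to 143). The number of libraries limits the precision.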

Additional observations from a re-analysis of the deposited data

How the results depend on the processing

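With all 6 libraries, 0 genes passed an adjusted p of 0.05 in edgeR and 1254 an unadjusted p of 0.05. The count was 235 with DESeq2, 120 with all genes of at least 1 count, 2 with the replicate block, 34 when that block was joined with the correction for length and GC content, 5607 with replicates 1 and 2 only, and 2870 there with the correction. Leaving out 1 library gave 0 to 1064 genes, the most without control replicate 3. Of the 10 members, 0 passed in every fit except replicates 1 and 2 only, which gave 2, also 2 with DESeq2 and 0 with the correction. Members at an unadjusted p under 0.05 numbered 3 with replicates 1 and 2 only, 2 there with the correction, and 0 to 2 with 1 library left out (Asz1 without control replicate 3, Tdrd5 and Tex19.1 without APAP+IBU replicate 3). Other pathway genes called numbered 1 with DESeq2, 30 with replicates 1 and 2 only, 6 there with the correction, and 0 to 5 with 1 library left out, the most without control replicate 3. The members' median difference relative to germ cell markers was 0.29, against -0.23 with Ddx4 and Dazl only, 0.63 with replicates 1 and 2 only and 0.13 to 0.58 with 1 library left out, the lowest without APAP+IBU replicate 1 and the highest without APAP+IBU replicate 3. The cause of these shifts was not tested.

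Of 160 log2 fold changes of members under alternatives, 140 kept their direction and side of the threshold, 2 passed it, and 18 changed sign. Replicates 1 and 2 only put Asz1 at 0.53 and Tex19.1 at -0.62, past the threshold. Without correction and with it, these libraries gave 0.090 and 0.013 for Piwil2 and 0.047 and 0.034 for Mael, and with it -0.24 for Asz1 and -0.12 for Tdrd12. The length and GC correction of all 6 libraries gave -0.012 for Tdrd12 and -0.13 for Asz1, and the replicate block with it -0.0052 and -0.14. With 1 library left out, Piwil2 ran from -0.098 to 0.073, Piwil4 from -0.045 to 0.20, Tdrd9 from -0.069 to 0.24 and Mael from -0.20 to 0.065. Deviations of libraries with the same replicate number were nearly uncorrelated (-0.069, -0.015 and -0.044), although both replicate 3 libraries held more liver gene RNA. Whether libraries of the same number came from the same experiment is not given in the sources used here. The replicate block changed no call of a member. By SE, Tdrd9 (0.23) and Piwil4 (0.22) were measured with the least precision of the members over all 6 libraries.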
